A study of Mus musculus with 18 samples.

Results

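Thymocytes of SHARPIN-deficient mice were compared before and after surface MHC class I (MHC I) rises, as CD69+ cells sorted into an MHC I low and an MHC I high fraction from the same 3 *Sharpin* cpdm mice. The 6 samples were taken by their genotype and MHC I labels from the 18 samples of the study, and 12798 of the 27179 genes in the count files passed the expression filter and were tested. The study sequenced RNA from both fractions of 3 wild-type (WT), 3 *Hoil*ΔCd4 and 3 *Sharpin* cpdm mice, to follow how loss of parts of the linear ubiquitin chain assembly complex (LUBAC) affects gene expression just after positive selection. In *Hoil*ΔCd4 mice a floxed *Rbck1*, which encodes HOIL-1, is deleted by *Cd4*-Cre and so in T-lineage cells alone. *Sharpin* cpdm is a spontaneous mutation that removes SHARPIN from every cell of the mouse, and these mice, which come down with inflammatory skin disease, were studied before it became extensive. The WT mice were C57BL/6, whereas the *Sharpin* cpdm strain came from C57BL/Ka and was still largely of that background after a brief backcross. A difference between *Sharpin* cpdm and WT mice therefore cannot be told apart from background alleles, whether or not they are linked to *Sharpin*. *Hoil*ΔCd4 mice were also on C57BL/6, so the same holds against them. The mouse ages are not given in the sources used here. By their counts of *Xist* and of 4 genes of chromosome Y, all 3 WT mice were female, and 1 of 3 *Sharpin* cpdm mice and 1 of 3 *Hoil*ΔCd4 mice were female. Each fraction pair comes from 1 mouse, which keeps sex and background equal within the high against low comparison, whereas in the comparisons with WT sex was unevenly spread over the genotypes and was not fitted.

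Thymocytes that carry a useful T-cell receptor (TCR) are positively selected at the CD4+CD8+ double-positive (DP) stage, switch on CD69, and then mature as single-positive (SP) cells of the CD4 or CD8 lineage that move from cortex to medulla and finally leave the thymus. During this maturation surface MHC I rises, the recombinase genes and early TCR response genes are switched off, and receptors for egress and for cytokines are switched on. LUBAC, made of HOIP (*Rnf31*), HOIL-1 (*Rbck1*) and SHARPIN, attaches linear ubiquitin chains to signalling proteins, and these chains help to activate NF-κB and restrain cell death below TNF receptors and antigen receptors. NF-κB and interferon signalling are both known to accompany the late, medullary steps of maturation.

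Between 11839227 and 16078502 reads were counted on genes in the 6 *Sharpin* cpdm samples, against 10577966 to 16266128 over all 18. Levels are given as CPM, the counts scaled to a common library size with TMM factors, and changes as the log2 fold change of MHC I high over MHC I low with its standard error (SE) from 1 limma fit to all 18 samples. Genes with a Benjamini-Hochberg adjusted p under 0.05 over the 12798 genes are those named as called, and all adjusted p-values below are from this fit. The labels give a separate mouse for each replicate, and the samples of a group differed by more than sampling noise. In bulk samples, fewer cells of a type and less RNA per cell cannot be told apart.

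The sort could be read in the RNA. *H2-K1*, whose protein is the MHC I molecule used for gating, stood at 2063, 2092 and 2118 CPM in the MHC I high samples of mice 1, 2 and 3 and at 232, 225 and 211 CPM in their MHC I low samples. *Cd69*, which both fractions carry on the surface, stood at 101, 107 and 103 CPM in MHC I high and at 307, 321 and 315 CPM in MHC I low cells. Neither gene overlapped between the fractions, and since the fractions were gated on the first protein its change is a check rather than a result. The *Sharpin* transcript itself was present, at 69.4, 74.2 and 77.9 CPM in MHC I high and 74.7, 66.4 and 73.4 CPM in MHC I low samples, which overlap, and counts over the whole gene do not test a small mutation within it. *Rbck1* stood at 262 ± 2.00 and 233 ± 2.48 CPM (mean ± SD, n = 3) in the 2 *Sharpin* cpdm fractions and at 5.72 ± 2.81 and 0.544 ± 0.256 CPM in those of *Hoil*ΔCd4 mice. The 15 markers of mature SP thymocytes summed to 5380–5570 CPM in MHC I high and 2500–2570 CPM in MHC I low samples. Of them 14 were called higher and 1, *Il7r*, lower. Their median log2 fold change was 1.39, against 2.06 in WT mice, with no marker called different from WT. Of the markers of other cells, *Ms4a1* and *Pax5* of B cells, *Csf1r*, *Itgax* and *C1qa* of myeloid cells, *Krt5*, *Krt8* and *Foxn1* of thymic epithelium and *Ncr1* of NK cells all lay under the filter. The B-cell list summed to 161–178 CPM in MHC I high and 82.4–95.9 CPM in MHC I low samples, mostly from *Ighm*, the NK list to 144–163 and 34.6–37.2 CPM, mostly from *Il2rb*, and the thymic epithelium list to 68.7–75.2 and 25.3–28.5 CPM, mostly from *Ly75*. The myeloid list summed to 30.9–36.5 and 35.8–39.7 CPM, with 4 of 19 markers at 0 in every sample, and the erythroid list to 1.21–1.47 and 1.03–1.42 CPM. Of the 6 B-cell, 7 myeloid, 6 epithelial and 4 NK markers tested, 2, 2, 2 and 3 were called higher and 1, 1, 0 and 0 lower. Over all genes 27.2% were called higher and 27.4% lower. The higher ones included *Cd79a*, *Fcer1g*, *Itgam*, *Prss16* and *Gzma* (log2 fold changes 0.82, 1.44, 1.16, 2.07 and 3.41). Markers gated out in the sort summed to 3810–4060 CPM in MHC I high and 3190–3530 CPM in MHC I low samples. Of the 6 of them tested 4 were called higher and 0 lower. The part of these cells in the results below was not tested.

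More than every second gene measured differed between the 2 fractions of *Sharpin* cpdm mice, with about as many falling as rising, and the large changes were mostly rises. Of 12798 genes, 6991 (54.6%) were called, 3486 higher (27.2% of all tested) and 3505 lower (27.4%) in MHC I high cells. At least 2-fold changes numbered 1017 higher (7.95%) and 464 lower (3.63%), and at least 4-fold changes 369 and 90. With only genes of at least 10 counts in every sample, which drops genes near 0 in 1 fraction, the 2-fold counts were 581 and 248. In 6843 of the 6991 called genes the 3 mice moved in the same direction, and the 3 MHC I high samples did not overlap with the 3 MHC I low samples for 7143 genes (55.8%). The median log2 fold change over all genes was 0.00, the 10th and 90th percentiles were −0.51 and 0.86, and the median SE was 0.083. The same contrast called 6956 genes in WT and 5793 in *Hoil*ΔCd4 mice.

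The 12 genes with the smallest p-values among those called and at least 2-fold higher in each mouse were *H2-K1*, *Cyth4*, *Adgrg5*, *S1pr1*, *Esyt1*, *Lfng*, *Itgb7*, *H2-D1*, *Klf2*, *Il2rb*, *Cd7* and *Ctsw*. *Adgrg5*, an adhesion G-protein-coupled receptor, rose from 3.78, 4.13 and 4.27 CPM to 157, 176 and 171 CPM, a log2 fold change of 5.36 ± 0.10 (adjusted p = 6.2e-28). *Cyth4*, an exchange factor for ARF GTPases, rose from 24.1, 26.6 and 26.9 CPM to 177, 178 and 164 CPM. *Cd7*, a surface glycoprotein of T and NK cells, had a log2 fold change of 3.55 ± 0.09, *Lfng*, the glycosyltransferase that tunes Notch receptors, one of 2.48 ± 0.06, and *Esyt1*, a membrane tether, one of 1.88 ± 0.04. Among the 12 genes at the other end were *St3gal2*, *Edaradd*, *Dmwd*, *Gata3*, *Slc9a9*, *Mpp4*, *H2-Q2*, *Sh3bp2*, *Bcl6*, *Arhgef6* and *Arap2*. *Dmwd* fell from 81.2, 75.8 and 74.0 CPM to 3.97, 4.64 and 3.996 CPM, a log2 fold change of −4.15 ± 0.12 (adjusted p = 2.0e-22). *St3gal2*, a sialyltransferase, had one of −2.39 ± 0.07, *Bcl6*, a transcriptional repressor of follicular helper cells, one of −1.76 ± 0.06, and *H2-Q2*, a non-classical MHC I gene, one of −2.51 ± 0.08. In none of the 24 genes of both ends was the change called different from that in WT mice.

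**Figure D1:**
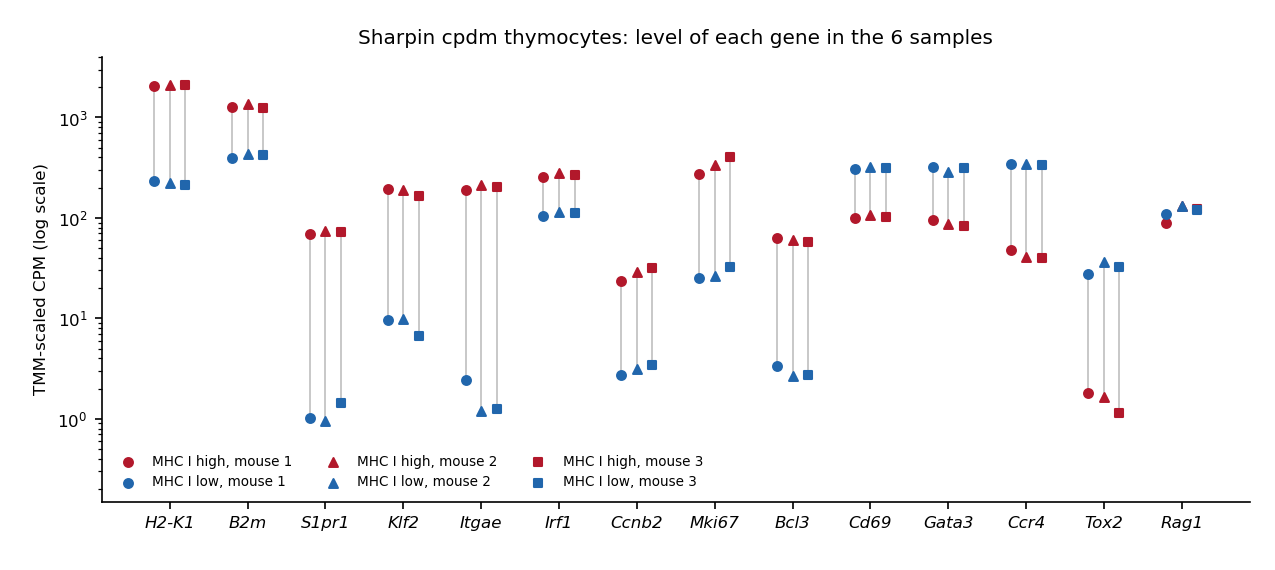
Level of 14 genes in the 6 *Sharpin* cpdm samples, in TMM-scaled CPM on a log axis, with MHC I high samples in red, MHC I low samples in blue, 1 marker shape per mouse and a grey line joining the fractions of a mouse. The fractions separate for every gene shown except *Rag1*, and the 3 mice lie close together within each fraction.

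MHC I presentation genes rose together, but not the whole pathway. Of 24 genes of the list, 18 were called higher and none lower, against 27.2% and 27.4% of all genes. The median log2 fold change was 0.79 against 0.00 over all genes, and 10 rose at least 2-fold. These counts include *H2-K1*, whose protein set the gate and whose rise is a check rather than a result. The classical heavy chain *H2-D1* went from 349, 358 and 346 CPM to 1171, 1123 and 1131 CPM, and *B2m*, the shared light chain β2-microglobulin, from 397, 438 and 423 CPM to 1270.5, 1350.2 and 1240.1 CPM. *Nlrc5*, the transactivator of MHC I genes, had a log2 fold change of 1.62 ± 0.06 (adjusted p = 1.6e-19), the immunoproteasome subunit *Psmb9* one of 1.39 ± 0.06, and the peptide transporter subunit *Tap1* one of 1.05 ± 0.05. The largest change, in the Qa-2 gene *H2-Q7*, was also the most variable, from 5.81, 5.94 and 1.25 CPM to 234, 213 and 119 CPM (5.49 ± 0.39), with mouse 3 the lowest in both fractions. The other transporter subunit *Tap2* had a log2 fold change of 0.00 ± 0.04, and the chaperones *Calr*, *Canx* and *Pdia3* had −0.04, 0.01 and 0.06, none of them called. The CD1d gene *Cd1d1* (−0.13 ± 0.08) and the MAIT ligand gene *Mr1* (0.01 ± 0.10) were not called either. No member of the list was called different from WT mice, where the median was 0.85. Of the 24 changes 15 were below those of WT, against 6546 of all 12798 genes. Reads of near-identical H2 genes can be shared between members, and the setting used for them is not given in the sources used here.

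Promoters of *H2-K1* and *H2-D1* are shown because, among list genes with the motif in their window, both have the smallest p-values, and the letters of a κB site, the element that NF-κB dimers bind, lie in both. For *H2-K1*, whose protein set the gate, the p-value is a check of the sort rather than a result. The windows run from 250 bases before to 30 bases after a transcript start of RefSeq on GRCm38.p6, 5′ to 3′ on the gene's strand, and capitals mark the motif GGGANNNCC, searched on both strands (the palindromic match reads as the motif on either strand). *H2-K1* is at chr17:34000318-34000597 on the minus strand, within the annotated span of the gene because another transcript starts upstream, and *H2-D1* at chr17:35262844-35263123 on the plus strand.
H2-K1: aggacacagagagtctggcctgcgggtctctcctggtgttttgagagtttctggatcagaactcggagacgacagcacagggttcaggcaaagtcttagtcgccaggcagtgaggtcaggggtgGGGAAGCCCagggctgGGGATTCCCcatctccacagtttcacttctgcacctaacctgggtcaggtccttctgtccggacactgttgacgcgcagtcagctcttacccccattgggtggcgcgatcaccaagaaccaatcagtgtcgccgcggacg
H2-D1: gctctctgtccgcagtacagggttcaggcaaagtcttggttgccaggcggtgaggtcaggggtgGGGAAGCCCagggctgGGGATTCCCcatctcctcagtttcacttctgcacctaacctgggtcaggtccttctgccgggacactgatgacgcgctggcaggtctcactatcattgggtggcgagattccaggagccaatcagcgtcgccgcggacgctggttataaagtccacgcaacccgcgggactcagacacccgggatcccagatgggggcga
The same pair of matches, GGGAAGCCC and GGGATTCCC, starts 126 and 110 bases before the start in *H2-K1* and 186 and 170 bases before it in *H2-D1*. Of 22 promoters of the 20 MHC I list genes with an entry, 7 (31.8%) hold GGGANNNCC, against 17.4% of 32851 promoters of the same length.

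Interferon-response genes rose almost without exception. Of 46 genes, 44 were called higher and 1 lower, 30 rose at least 2-fold, and the median log2 fold change was 1.28. *Irf1*, a transcription factor induced by interferon, rose from 105, 114 and 112 CPM to 258, 279 and 271 CPM with no overlap (adjusted p = 1.4e-18). Effectors of antiviral defence spread over a wide range: *Ifit3*, which blocks viral RNA, rose by 4.21 ± 0.27 on the log2 scale, the Ly-6 antigen gene *Ly6a* by 3.88 ± 0.26, *Mx1* by 3.31 ± 0.39, *Oas2* by 2.34 ± 0.18 and *Isg15* by 1.23 ± 0.20. The RNA sensors *Ddx58* (1.03 ± 0.06) and *Ifih1* (1.56 ± 0.15) and the ubiquitin ligase gene *Trim30a* (1.19 ± 0.08) rose as well. Of the receptors, *Ifnar1*, *Ifnar2* and *Ifngr2* rose by 0.44, 0.66 and 0.45, while *Ifngr1* had a log2 fold change of −0.07 ± 0.06 and was not called. *Samhd1*, a dNTP hydrolase that limits retroviruses, was the exception, falling from 546, 538 and 518 CPM to 348, 361 and 331 CPM. The list's summed level in MHC I high cells was 5920, 6810 and 6510 CPM in the *Sharpin* cpdm mice and 6680, 6730 and 6370 CPM in WT mice, so these ranges overlap. The change was below that of WT in 38 of the 46 genes (median difference −0.16), against 6546 of all 12798 genes (median difference −0.01), and called different in 1, *Ifi27l2a* (log2 fold change 1.97 against 2.55 in WT).

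The promoters of *Ddx58* and *Trim30a* are shown as the 2 interferon-response genes with the smallest p-values whose window holds GAAANNGAA, the letters of the interferon-stimulated response element. They lie at chr4:40239796-40240075 and chr7:104465164-104465443, both on the minus strand, and both matches (capitals) read the motif on the opposite strand.
Ddx58: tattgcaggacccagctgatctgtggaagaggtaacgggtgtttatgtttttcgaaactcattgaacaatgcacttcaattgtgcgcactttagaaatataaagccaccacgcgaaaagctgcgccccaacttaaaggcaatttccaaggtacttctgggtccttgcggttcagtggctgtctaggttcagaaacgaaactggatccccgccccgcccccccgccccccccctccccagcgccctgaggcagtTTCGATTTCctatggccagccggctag
Trim30a: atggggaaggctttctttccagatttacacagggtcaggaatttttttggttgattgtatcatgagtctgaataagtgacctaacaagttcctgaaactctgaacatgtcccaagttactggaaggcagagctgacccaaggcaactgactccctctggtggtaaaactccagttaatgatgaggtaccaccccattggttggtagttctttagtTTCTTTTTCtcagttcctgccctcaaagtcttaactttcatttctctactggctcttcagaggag
The match starts at base 4 after the start in *Ddx58* and 35 bases before it in *Trim30a*. The letters occur in 19 of 42 promoters (45.2%) of the 34 list genes with an entry, against 8.06% of all 32851.

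Receptors and regulators of thymic egress rose, while several chemokine receptors fell. *S1pr1*, the receptor for sphingosine-1-phosphate through which mature cells leave the thymus, rose from 1.01, 0.947 and 1.42 CPM to 69.6, 74.6 and 73.1 CPM, a log2 fold change of 6.0 ± 0.14 (adjusted p = 2.6e-25). *Klf2*, the transcription factor that drives *S1pr1*, rose from 9.60, 9.90 and 6.61 CPM to 195, 189.6 and 164 CPM. *Itgae*, the αE integrin chain CD103, had the largest change of the list, from 2.43, 1.21 and 1.25 CPM to 192, 213 and 205 CPM (7.01 ± 0.21). In all 3 genes the lowest MHC I high sample exceeded the highest MHC I low sample many fold. Its partner chain *Itgb7* (2.16 ± 0.05), the second sphingosine receptor *S1pr4* (2.17 ± 0.07), *Foxo1*, which acts upstream of *Klf2* (1.503 ± 0.07), and the chemokine receptor *Ccr7* (1.01 ± 0.05) also rose. *Ccr4*, a receptor of newly selected cells, fell from 345, 340.4 and 338 CPM to 47.9, 41.1 and 39.8 CPM, and *Ccr9* from 1337, 1402 and 1411 CPM to 523, 549 and 546 CPM. *Plxnd1*, *Gpr183* and *Cxcr4* fell by 0.93, 1.596 and 0.64 on the log2 scale. In all, 14 of 26 measured members were called higher and 10 lower (median 0.35), against 27.2% and 27.4% of all genes. *Cxcr3* and *Sphk1* lay under the filter.

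Genes of survival and cytokine response changed in both directions. Of 32 genes for cytokine receptors and their feedback, 17 were called higher and 8 lower (median 0.22), against 27.2% and 27.4% of all genes. *Il2rb*, the shared β chain of the IL-2 and IL-15 receptors, rose from 26.5, 23.8 and 21.3 CPM to 139.7, 141 and 122 CPM, and *Il6ra* from 12.8, 13.3 and 11.9 CPM to 68.6, 69.3 and 74.8 CPM. The feedback inhibitors *Smad7* (3.85 ± 0.12) and *Socs3* (2.88 ± 0.15) rose and *Socs1* fell (−0.96 ± 0.07). *Il7r*, the IL-7 receptor α chain, fell from 461, 473 and 451 CPM to 332, 349.9 and 328 CPM and *Il4ra* by 0.72 on the log2 scale. *Bcl2*, the survival gene that IL-7 sustains, fell from 437, 477 and 484 CPM to 283, 275 and 287 CPM (−0.73 ± 0.05, adjusted p = 1.9e-14). Of 15 BCL-2 family genes measured, 7 were called lower and 1 higher. The pro-apoptotic *Bcl2l11* (BIM) fell from 421, 392 and 353 CPM to 195, 185 and 177 CPM and *Bbc3* (PUMA) from 39.5, 32.7 and 37.0 CPM to 17.9, 14.0 and 14.3 CPM, whereas *Bmf* rose by 0.86 ± 0.14. *Mcl1* (0.05 ± 0.05) and *Bid* (−0.12 ± 0.10) were not called. Of the 8 GIMAP GTPase genes, which act in lymphocyte survival, 6 were called higher, led by *Gimap3* (2.04 ± 0.13), and *Gimap9* was called lower (−0.41 ± 0.05).

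Early TCR response genes fell. Of 28 reporters of TCR signalling, 24 were called lower and 3 higher, 13 fell at least 2-fold, and the median was −0.97, against −0.84 in WT mice. *Itm2a* fell from 2592, 2409 and 2718 CPM to 589, 547 and 515 CPM, *Egr2* from 157, 175 and 156 CPM to 65.7, 65.0 and 58.7 CPM, and *Nr4a1* (NUR77) from 867, 786 and 826 CPM to 432, 391 and 402 CPM. None of these genes overlapped between the fractions, as held for 55.8% of all genes. *Cd5*, whose level follows TCR signal strength, fell by 0.82 on the log2 scale, *Pdcd1* (PD-1) by 1.44, and the ERK phosphatases *Dusp5* and *Dusp6* by 0.99 and 1.13. The 3 genes that rose were *Irf4* (0.71 ± 0.07), *Myc* (0.59 ± 0.07) and *Tnfrsf9* (0.24 ± 0.08), and *Egr3* was not called (0.12 ± 0.08). Components of the receptor itself moved little: among 27 CD3, kinase and adaptor genes 8 were called higher and 10 lower, against 27.2% and 27.4% of all genes. Their median was 0.01, and none changed 2-fold. *Cd3g* had 0.24, *Cd3e* 0.06, *Zap70* −0.42 and *Lck* 0.23, of which *Cd3e* was not called.

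Most T-lineage transcription factors changed, 20 of 36 called lower and 9 higher (median −0.31), against 27.4% and 27.2% of all genes. *Gata3*, which directs CD4 fate, fell from 322, 288 and 316 CPM to 94.4, 86.9 and 82.2 CPM, and *Tox2* from 27.8, 36.8 and 32.5 CPM to 1.79, 1.65 and 1.14 CPM. *Lef1*, *Id2*, *Nfatc1* and *Satb1* fell by 1.37, 1.69, 1.36 and 0.98 on the log2 scale, and *Tcf7*, which encodes TCF-1, was not called (0.02 ± 0.04). Genes known from CD8 cells rose. *Cd8a* went from 200.03, 213 and 232 CPM to 846, 998 and 999.9 CPM, *Runx3*, the CD8 fate regulator, from 53.9, 48.6 and 45.3 CPM to 130.1, 119 and 128 CPM, and *Nkg7*, a granule protein gene of cytotoxic cells, from 1.22, 0.861 and 1.67 CPM to 40.8, 45.1 and 49.7 CPM. The granule protease genes *Ctsw* (2.76 ± 0.07) and *Gzma* (3.41 ± 0.25) rose too. *Zbtb7b*, the CD4 fate regulator ThPOK (−0.61 ± 0.08), *Cd40lg* (−1.45 ± 0.06) and *Cd4* (−0.34 ± 0.05) fell. Of 23 measured genes of both lineages 9 were called higher and 12 lower (median −0.21), and with at least 10 counts in every sample 5 were called higher and the median was −0.39.

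Genes of regulatory and innate-like T cells were detected and moved in both directions, although the sort removed cells with surface CD25, CD44, NK1.1 or δTCR. *Foxp3* stood at 3.71, 3.37 and 3.14 CPM against 0.541, 0.430 and 0.502 CPM, *Ctla4* at 21.8, 22.2 and 18.1 CPM against 5.14, 4.30 and 4.60 CPM and *Ikzf4* at 39.2, 39.7 and 39.9 CPM against 10.5, 10.4 and 9.37 CPM, all without overlap. Over all genes, 55.8% had no overlap between the fractions. *Tigit* (−2.30 ± 0.16), *Gpr83* (−0.95 ± 0.16) and *Ikzf2* (−0.43 ± 0.08) fell. In all, 9 of 18 regulatory T-cell genes were called higher and 4 lower, against 27.2% and 27.4% of all genes. Of 17 innate-like and γδ genes 12 were called higher and 4 lower, among them *Klrd1* (3.40 ± 0.38) and *Xcl1* (2.66 ± 0.36) higher and *Sox13* (−1.71 ± 0.17) and *Sh2d1a* (−1.23 ± 0.06) lower. Their median was 1.92, 1.145 without mouse 2, and −0.02 with 3 called higher when only genes of at least 10 counts in every sample were kept. The δ chain gene *Trdc* stood at 24.5, 28.8 and 25.8 CPM in MHC I high and 12.9, 13.4 and 13.2 CPM in MHC I low samples, and the part of residual γδ cells was not tested.

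NF-κB pathway genes rose in part. Of 38 regulators and targets, 20 were called higher and 7 lower, against 27.2% and 27.4% of all genes. Their median log2 fold change was 0.21. *Bcl3*, an atypical IκB protein that works with p50 and p52, rose from 3.38, 2.67 and 2.76 CPM to 63.8, 60.1 and 57.4 CPM, a log2 fold change of 4.34 ± 0.14 (adjusted p = 3.1e-20). *Ltb*, encoding lymphotoxin β, rose from 129, 129.7 and 138 CPM to 387, 378 and 366 CPM, and the adaptor gene *Traf1* from 38.05, 31.2 and 26.3 CPM to 97.9, 98.6 and 88.5 CPM. In these 3 genes the fractions were far apart in every mouse. The inhibitors moved less and not together: *Nfkbia* (IκBα) rose by 0.36 ± 0.05 and *Nfkbie* by 0.52 ± 0.08, while *Nfkbid* (−1.004 ± 0.05), *Nfkbib* (−0.26 ± 0.07) and *Tnfaip3*, encoding the deubiquitinase A20 (−0.45 ± 0.05), fell. Of the subunits, *Rela* fell by 0.43 on the log2 scale, and *Nfkb1* (−0.06 ± 0.05), *Nfkb2* (−0.08 ± 0.05), *Rel* (−0.03 ± 0.07) and *Relb* (0.13 ± 0.06) were not called. *Birc3*, encoding the ubiquitin ligase cIAP2, rose from 63.2, 60.3 and 58.9 CPM to 98.6, 101 and 103 CPM.

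LUBAC genes and the machinery around TNF receptors moved in both directions. *Rnf31* stood at 115, 118 and 114 CPM in MHC I high and 118, 102 and 103 CPM in MHC I low samples, which overlap, and *Rnf31*, *Sharpin* and *Otulin*, the linear-chain hydrolase gene, were not called (adjusted p = 0.062, 0.37 and 0.13). *Rnf31* was called without mouse 1 (log2 fold change 0.18, adjusted p = 0.023) and in 3 other alternatives. *Rbck1* was higher in every MHC I high sample (260.1, 263 and 264 CPM) than in any MHC I low sample (233, 231 and 236 CPM) but was not called (adjusted p = 0.54) in the fit whose spread includes the *Hoil*ΔCd4 samples, and had a log2 fold change of 0.17 (limma adjusted p = 0.000519) in the *Sharpin* cpdm samples alone. Of 15 genes around linear ubiquitin 4 were called higher (*Tnip1*, *Cyld*, *Ikbkg* and *Tab3*) and 4 lower (*Spata2*, *Ube2l3*, *Ubb* and *Map3k7*), none 2-fold, which is near the share of all genes called (27.2% higher and 27.4% lower). Of 27 TNF receptor and death signalling genes 14 were called higher and 6 lower, beside the same shares of all genes. *Tnfrsf1b* (TNFR2) rose from 90.6, 87.7 and 76.6 CPM to 181, 179.7 and 163 CPM and *Tnfrsf1a* (TNFR1) fell from 89.4, 80.5 and 83.5 CPM to 68.7, 71.9 and 66.9 CPM. The kinase gene *Ripk1* rose (0.68 ± 0.06) and *Ripk3*, needed for necroptosis, fell (−0.57 ± 0.05), and *Casp8* and *Cflar* rose by 0.18 and 0.15. *Mlkl* lay under the filter.

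**Figure D2:**
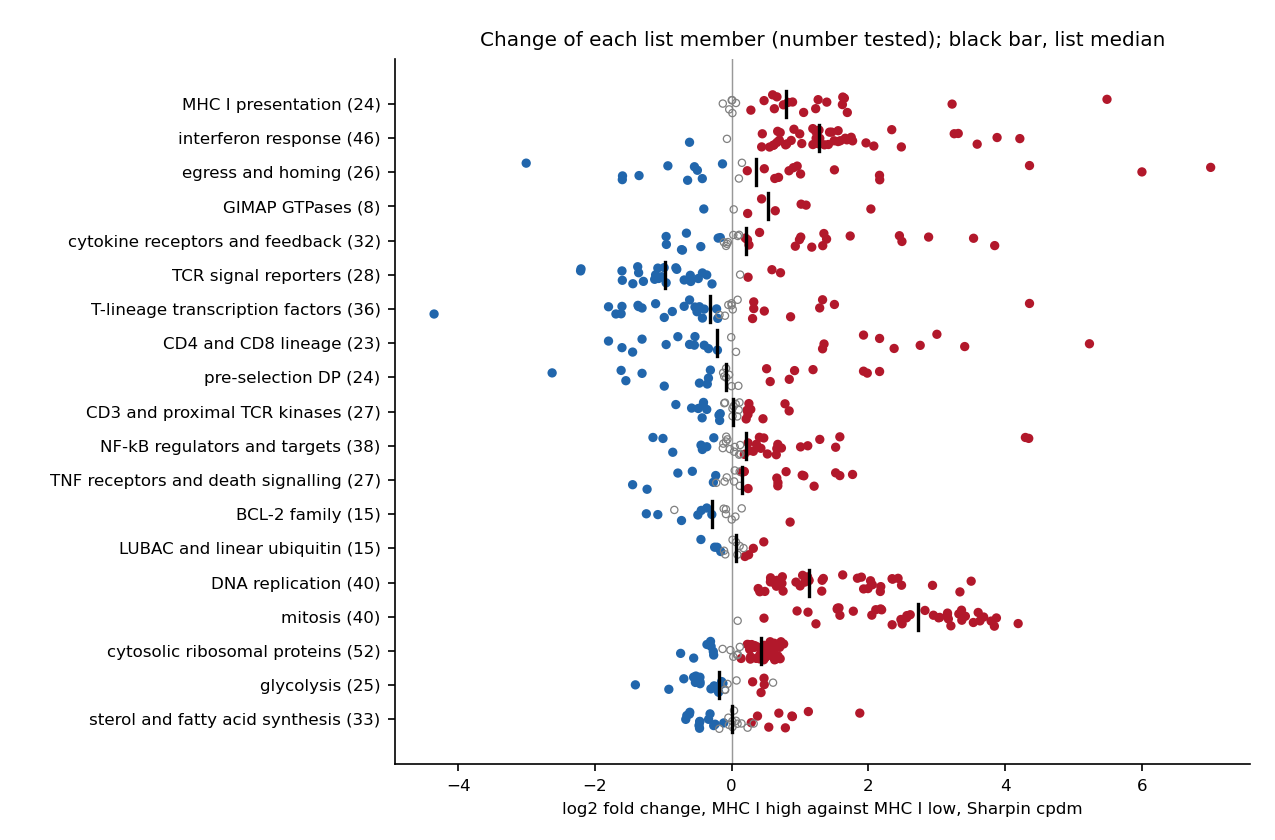
log2 fold change of MHC I high over MHC I low in *Sharpin* cpdm mice for every tested member of 19 lists, with the number tested in parentheses, filled points for called genes (red higher, blue lower), open points for genes not called and a black bar at the list median. All or nearly all members of the DNA replication, mitosis and interferon lists lie to the right of 0, and 24 of the 28 TCR signal reporters are blue points to its left.

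Cell-cycle genes rose throughout. All 40 DNA replication genes were called higher (median 1.13) and 39 of 40 mitosis genes (median 2.72), 37 of them at least 2-fold, and none lower in either list. The 3 MHC I high samples lay above the 3 MHC I low samples for 40 and for 39 genes. Over all 12798 genes the fractions did not overlap for 7143 (55.8%), rises and falls together. *Ccnb2*, a cyclin of the G2 to M transition, rose from 2.70, 3.10 and 3.43 CPM to 23.5, 28.7 and 31.5 CPM, a log2 fold change of 3.17 ± 0.12 (adjusted p = 2.9e-20). *Mki67*, the gene of the proliferation antigen Ki-67, rose from 25.3, 26.3 and 32.8 CPM to 273, 336 and 403 CPM. *Top2a*, which untangles chromosomes, rose from 30.3, 34.7 and 41.3 CPM to 294, 358 and 429 CPM. Mouse 1 had the lowest and mouse 3 the highest MHC I high level of these genes, and each MHC I high sample was several fold above every MHC I low sample. *Aurkb* (3.84 ± 0.18), *Birc5* (3.53 ± 0.14), *Kif4* (3.69 ± 0.17) and *Nusap1* (3.42 ± 0.12), of the spindle and the chromosomal passenger complex, also rose, and *Kif23* was not called (0.09 ± 0.06). Among replication genes *Rrm2*, the small subunit of ribonucleotide reductase, rose from 5.74, 7.40 and 9.87 CPM to 62.5, 77.3 and 83.9 CPM, the licensing factor gene *Cdc6* by 3.50 ± 0.18, the cyclin gene *Ccne1* by 2.94 ± 0.13 and *Pcna*, the polymerase clamp, by 0.75 ± 0.07. The 6 helicase subunits *Mcm2* to *Mcm7* rose by between 0.63 (*Mcm7*) and 1.32 (*Mcm3*).

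The promoters of *Ccnb2* and *Kif4* are shown because both genes rose more than in WT mice and hold TTTGAA, the letters of the cell cycle genes homology region through which DREAM and MuvB complexes act. They lie at chr9:70421525-70421804 on the minus strand and chrX:100625815-100626094 on the plus strand, with the motif in capitals.
Ccnb2: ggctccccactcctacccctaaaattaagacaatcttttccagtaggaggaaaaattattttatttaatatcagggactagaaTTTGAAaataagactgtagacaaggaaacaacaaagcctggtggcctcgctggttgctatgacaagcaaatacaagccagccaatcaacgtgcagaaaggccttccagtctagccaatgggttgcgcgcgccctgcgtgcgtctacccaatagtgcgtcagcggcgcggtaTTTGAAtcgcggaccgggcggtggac
Kif4: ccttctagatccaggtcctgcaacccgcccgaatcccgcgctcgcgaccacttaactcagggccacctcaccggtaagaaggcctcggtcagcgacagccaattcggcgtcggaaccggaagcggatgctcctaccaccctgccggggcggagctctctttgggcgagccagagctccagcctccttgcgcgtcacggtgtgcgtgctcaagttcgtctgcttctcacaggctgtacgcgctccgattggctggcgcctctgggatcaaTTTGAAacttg
TTTGAA starts 167 bases before and at base 5 after the start in *Ccnb2*, and at base 20 after it in *Kif4*. The letters, on either strand, occur in 24 of 35 promoters (68.6%) of the 33 mitosis genes with an entry, against 17.2% of all 32851.

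Genes of metabolism and translation changed mostly by less than 2-fold. Glycolysis genes mostly fell, with 16 of 25 called lower and 4 higher (median −0.19), led by *Ldhb* from 86.6, 80.6 and 88.6 CPM to 31.6, 31.7 and 32.0 CPM. *Pdk1*, a pyruvate dehydrogenase kinase gene, rose (0.48 ± 0.06), as did the lactate carrier gene *Slc16a1* (0.47 ± 0.09). The glucose carriers *Slc2a3* (−0.70 ± 0.05) and *Slc2a1* (−0.52 ± 0.08) fell. Of 33 sterol and fatty acid synthesis genes 9 were called higher and 13 lower, against 27.2% and 27.4% of all genes. Their median was 0.01, and −0.10 without mouse 2. *Mvd* (0.88 ± 0.09) and *Elovl6* (0.89 ± 0.10) were higher and *Dhcr7* (−0.67 ± 0.06) and *Fasn* (−0.48 ± 0.05) lower. Of 52 cytosolic ribosomal protein genes 39 were called higher and 7 lower, none 2-fold (median 0.42). *Rps20* (0.64 ± 0.04) rose and *Rpl27* (−0.75 ± 0.14) and *Rpl10* (−0.36 ± 0.08) fell, the latter to −0.21 and not called without mouse 2 (adjusted p = 0.091). Reads of these genes can be shared with their many processed copies. Per length, in CPM per kilobase, the highest levels in both fractions belonged to the mitochondrial genes *COX1* (6871 in MHC I high and 5721 in MHC I low cells), *CYTB* (4491 and 3774) and *ND1* (3024 and 2778). *ND2* (1903 and 1525) and *Actb* (1811 and 2304) followed in MHC I high cells, and *Actb* and *Pfn1* (1493 and 2141) in MHC I low cells.

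The comparison with WT mice asked whether the change between fractions itself differed. It did for 400 genes, 281 with a higher change in *Sharpin* cpdm than in WT mice (2.2% of all tested) and 119 with a lower one (0.93%). The change was larger in size in 271 of the 400 and smaller in 129, and in 33 both genotypes changed significantly in opposite directions. At an unadjusted p under 0.05 there were 2287 genes. The count was 461 by edgeR, 266 by DESeq2, 634 with the mouse as a fixed block, 124 without a block and 739 in the samples of the 2 genotypes alone. It was 249, 197 and 121 without *Sharpin* cpdm mouse 1, 2 and 3, and 168 and 104 without WT mouse 2 and 3.

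Mitosis genes rose more steeply in *Sharpin* cpdm than in WT mice. The fitted change was larger than in WT for all 40 genes of the list, against 48.9% of all genes. The median difference was 0.84 on the log2 scale. A higher change than in WT was called for 28, against 2.2% of all genes. The summed level of the 40 genes was 2680, 3170 and 3520 CPM in MHC I high samples of *Sharpin* cpdm mice 1, 2 and 3 and 748, 816 and 826 CPM in their MHC I low samples. In WT mice it was 2780, 2290 and 2600 CPM and 990, 971 and 1110 CPM, and in *Hoil*ΔCd4 mice 2940, 3330 and 3380 CPM and 1210, 1220 and 1060 CPM. The MHC I low sums of *Sharpin* cpdm mice thus lay below all those of the other genotypes, while their MHC I high sums overlapped with both. Set against the WT mean, the *Sharpin* cpdm mean was lower for 34 of the 40 genes in MHC I low cells and higher for 39 in MHC I high cells. Over all 12798 genes it was lower for 6102 and higher for 6440 in these fractions. *Ccnb2* stood at 27.9 ± 4.09 CPM (mean ± SD, n = 3) in MHC I high and 3.08 ± 0.364 CPM in MHC I low cells of *Sharpin* cpdm mice, against 18.5 ± 1.03 and 4.67 ± 0.111 CPM in WT (difference of the log2 changes 1.23 ± 0.16, adjusted p = 5.1e-05). *Nusap1*, a spindle microtubule protein gene, stood at 48.0 ± 7.26 and 4.57 ± 0.689 CPM against 31.5 ± 3.10 and 7.58 ± 0.842 CPM (difference 1.41 ± 0.17, adjusted p = 5.0e-05), and *Mki67* at 337 ± 64.9 and 28.1 ± 4.09 against 219.6 ± 31.2 and 44.2 ± 3.62 CPM (difference 1.31 ± 0.20, adjusted p = 0.0043). For *Foxm1*, the transcription factor of the G2/M programme, the difference was 0.77 ± 0.12, for *Kif4* 1.56 ± 0.23 and for *Aurkb* 1.58 ± 0.25. Of the DNA replication genes, 34 of 40 had a change above that of WT (median difference 0.17) and 6 were called, among them *Slbp*, the histone mRNA binding protein (0.55 ± 0.09), and *Rrm2* (1.01 ± 0.17). Of the 281 genes with a higher change 34 belonged to these 2 lists, and of the 119 with a lower change none. Without *Sharpin* cpdm mouse 2 or 3 the 28 mitosis genes became 16 and 17, without WT mouse 3 they became 12, and without the block or by DESeq2 17.

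**Figure D3:**
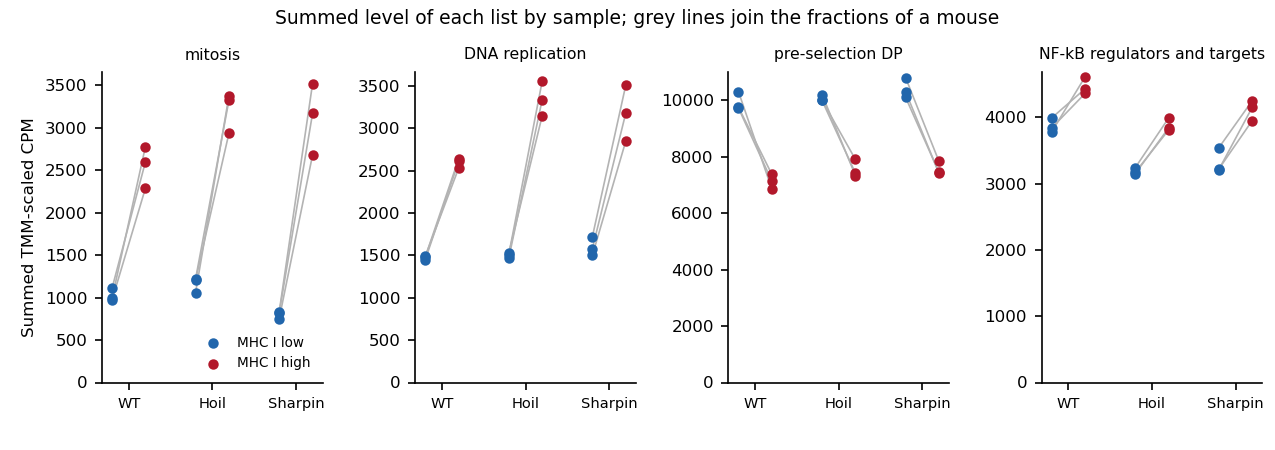
Summed TMM-scaled CPM of 4 lists in each of the 18 samples, with MHC I low samples in blue, MHC I high samples in red and grey lines joining the fractions of a mouse. The *Sharpin* cpdm mice start lowest in mitosis genes, and their NF-κB sums lie below all WT sums of the same fraction.

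Single genes of the pre-selection DP stage, among them both recombinase genes, changed differently in *Sharpin* cpdm and WT mice, while the summed level of the 24 genes was lower in every MHC I high than in any MHC I low sample of both genotypes. The sum, to which abundant members add most, was 7410, 7830 and 7440 CPM in MHC I high and 10300, 10800 and 10100 CPM in MHC I low samples of *Sharpin* cpdm mice. In WT mice it was 6850, 7370 and 7130 CPM and 10300, 9750 and 9720 CPM. Of the 24 genes, 8 were called higher and 9 lower in MHC I high cells, against 27.2% and 27.4% of all genes. Their median was −0.08, and −0.02 without mouse 1. The median was −0.33 in WT and −0.09 in *Hoil*ΔCd4 mice. The change in *Sharpin* cpdm mice was above that of WT for 18 genes, against 48.9% of all genes. Compared with *Hoil*ΔCd4 mice, 2 genes were called different. The recombinase gene *Rag1* stood at 88.5, 130.4 and 122 CPM in MHC I high and 110.2, 132 and 121 CPM in MHC I low samples, which overlap, while in WT it stood at 84.7 ± 8.21 and 163 ± 7.95 CPM. *Rag2* rose from 2.77, 4.91 and 4.43 CPM to 5.25, 8.64 and 8.85 CPM and *Arpp21* from 21.1, 25.5 and 26.4 CPM to 28.1, 39.2 and 33.9 CPM. Both fell in WT, with log2 fold changes of −0.78 and −0.44. The difference was 0.92 ± 0.19 for *Rag1* (adjusted p = 0.020), 1.70 ± 0.26 for *Rag2* (5.3e-04) and 0.95 ± 0.14 for *Arpp21* (5.3e-04). *Myb*, a transcription factor of immature thymocytes, fell in both genotypes but less in *Sharpin* cpdm mice (−1.31 against −1.58). *Cd8a* rose more (2.16 against 1.72), but it is also named above among genes known from CD8 cells and so is not particular to the DP stage. In all, 7 members, *Themis* among them, had a called higher change and none a lower one, against 2.2% and 0.93% of all genes. *Il17rb*, *Cd24a*, *Ets2* and *Satb1*, also high before selection, fell by 2.62, 1.55, 0.47 and 0.98 on the log2 scale, without a called difference. The 7 genes became 2 and 3 without *Sharpin* cpdm mouse 2 and 3, 3 without WT mouse 2 or 3, and 3 without the block.

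NF-κB genes started lower in *Sharpin* cpdm MHC I low cells. The mean level in that fraction was below that of WT for 34 of the 38 genes, against 6102 of all 12798. The level in MHC I high cells was above that of WT for only 6, against 6440 of all genes. The summed level was 3540, 3210 and 3220 CPM in *Sharpin* cpdm MHC I low samples and 3840, 3780 and 3990 CPM in those of WT, without overlap, and 3240, 3150 and 3170 CPM in those of *Hoil*ΔCd4 mice. The change was called higher than in WT for 7 genes and lower for none, against 2.2% and 0.93% of all genes. *Nfkbia* stood at 154 ± 6.20 and 119 ± 9.40 CPM in the MHC I high and low cells of *Sharpin* cpdm mice and at 202 ± 2.78 and 197 ± 13.9 CPM in those of WT (difference 0.33 ± 0.07, adjusted p = 0.0068). *Birc3* stood at 101 ± 2.01 and 60.8 ± 2.19 CPM against 120.4 ± 2.69 and 93.2 ± 7.47 CPM (difference 0.36 ± 0.07, adjusted p = 0.0071). The other 5 were *Nfkbie* (0.38 ± 0.11), *Ltb* (0.25 ± 0.07), *Traf1* (0.48 ± 0.11), *Rel* (0.38 ± 0.10) and *Nfkb2* (0.25 ± 0.07). In all 7 the mean level in *Sharpin* cpdm cells was below that of WT in both fractions.

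**Figure D4:**
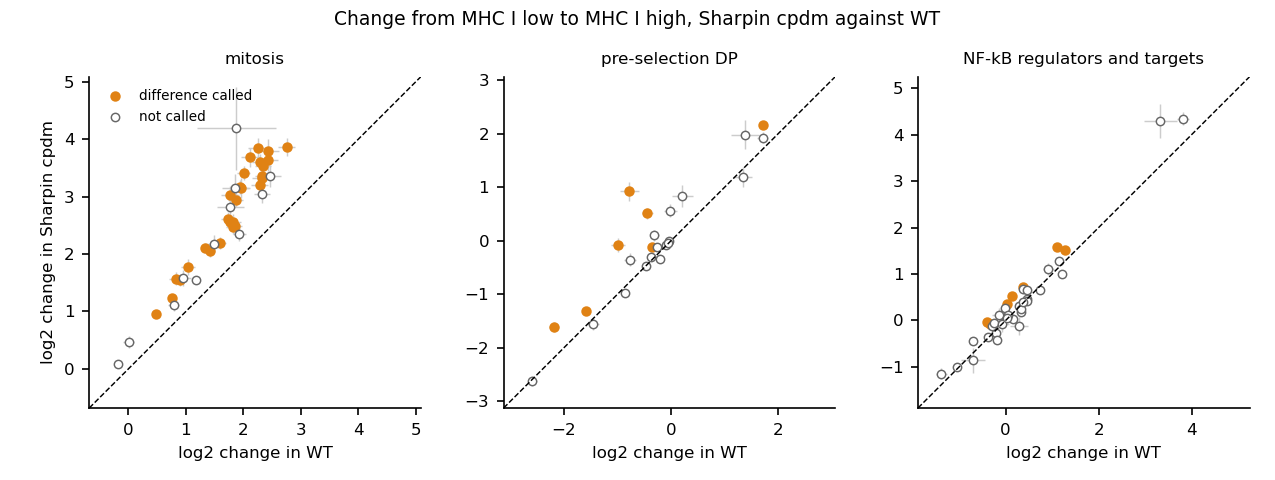
log2 change of MHC I high over low cells in WT (x axis) against *Sharpin* cpdm mice (y axis) for the members of 3 lists, with SE bars, orange points where the difference was called and a dashed line of equal change. All 40 mitosis genes lie above the line, and the pre-selection DP and NF-κB genes in orange do as well.

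Some members of the other lists differed from WT, beside 2.2% of all genes with a called higher change and 0.93% with a called lower one. Of 36 T-lineage transcription factors, 2 had a higher and 2 a lower change. No member of the regulatory T-cell, innate-like, GIMAP, sterol or ribosomal protein lists was called different. *Gzma* rose by 3.41 ± 0.25 against 1.59 in WT (adjusted p of the difference = 0.0033). *Cd3e* rose in WT (0.35) but was not called in *Sharpin* cpdm mice (0.06, adjusted p of the difference = 0.010). *Bcl2l11* fell less (−1.08 against −1.35), and *Bcl2* fell more (−0.73 against −0.47), as did *Pdcd1*, *Tox2*, *Lef1* and *Ldhb*. *Itgb3* and *Tnfsf8* rose less. Of all genes, *Tspan32*, a tetraspanin gene at chr7:143004907-143019486, had the smallest p-value, with 45.0 ± 1.02 and 10.2 ± 1.78 CPM in MHC I high and low cells of *Sharpin* cpdm mice against 142 ± 3.13 and 87.9 ± 3.60 CPM in those of WT mice, and 118 ± 6.91 and 79.3 ± 2.48 CPM where HOIL-1 was deleted. Its change was 2.14 ± 0.07 against 0.70 in WT, and its level was the lowest of the 3 genotypes in both fractions. *Kansl1l* (0.66 ± 0.09) and *Gramd3* (0.87 ± 0.12) had a higher change than in WT. *Dusp4*, an ERK phosphatase gene (−0.61 ± 0.10), *Ski*, a brake on TGF-β signalling (−0.42 ± 0.07), *Sh3bgrl2* (−1.72 ± 0.30), *Tbc1d4*, a regulator of glucose carrier traffic (−0.57 ± 0.10), and *Enc1* (−0.67 ± 0.11) had a lower one. *Sh3bgrl2* had low levels, 2.68 and 1.27 CPM in MHC I high and low cells of *Sharpin* cpdm mice and 3.91 and 0.519 CPM in those of WT. It rose by 1.00 in *Sharpin* cpdm, 2.73 in WT and 0.78 in *Hoil*ΔCd4 mice on the log2 scale. *Kansl1l* (−0.02) and *Tbc1d4* (0.10) were not called between the fractions of *Sharpin* cpdm mice. Whether background alleles, sex or early skin inflammation take part in these differences was not tested.

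Against *Hoil*ΔCd4 mice the change differed in 103 genes, 50 with a higher change in *Sharpin* cpdm mice (0.391%) and 53 with a lower one (0.414%), and in 1946 at an unadjusted p under 0.05. This comparison uses the same *Sharpin* cpdm samples as the one with WT, and here too background alleles cannot be told apart from the mutation. Of the mitosis genes, 38 of 40 had changes above those of *Hoil*ΔCd4 mice by a median of 0.52 with 5 called, and of the DNA replication genes 14 of 40 (median difference −0.14). Over all 12798 genes, 6320 had changes above those of *Hoil*ΔCd4 mice. *Slc28a2b*, a nucleoside carrier gene (1.29 ± 0.16, adjusted p = 4.6e-05), and *Ift80*, of intraflagellar transport (0.58 ± 0.08), rose more in *Sharpin* cpdm mice. *Cish*, the feedback inhibitor of STAT5 signalling, rose from 8.72, 10.5 and 11.1 CPM to 21.96, 19.8 and 19.7 CPM, a log2 fold change of 1.01 against 1.04 in WT and 1.96 in *Hoil*ΔCd4 mice (adjusted p of the latter difference = 0.0013). *Itgb3* rose by 0.63 against 1.25, and *Bcl2* fell by 0.73 against 0.24 (adjusted p = 2.9e-04 and 2.9e-04). *Cd8a* rose by 2.16 against 1.65, *Cd40lg* fell by 1.45 against 0.94, and *Myb* by 1.31 against 1.79. *Cd163l1*, a scavenger receptor gene of γδ T cells, lies at chr7:140197218-140231145, on the same chromosome as *Tspan32*. *Cd163l1* had at most 2 counts in any *Sharpin* cpdm sample and so gives no fold there. MHC I high samples of WT mice held 5.14 ± 1.99 CPM and those of *Hoil*ΔCd4 mice 7.53 ± 0.602 CPM. The count of 103 became 347 by edgeR, 210 by DESeq2 and 13 without the block, 47, 28 and 18 without *Sharpin* cpdm mouse 1, 2 and 3, 19 and 24 without *Hoil*ΔCd4 mouse 1 and 2, and 165 without WT mouse 1.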

How the data were processed

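RNA of CD69+ MHC I low and MHC I high thymocytes, sorted by flow cytometry after dead cells and cells with δTCR, Mac-1, Gr1, B220, MHC II, NK1.1, CD44 or CD25 had been gated out, was sequenced as single-end reads. The authors aligned reads to mm10 with subread and deposited whole-number counts per gene from featureCounts with its RefSeq annotation, while tool versions and the strand and multi-mapping settings are not given in the sources used here. Genes were kept at 0.5 CPM or more in at least 3 samples, without genes lacking a RefSeq entry, predicted genes, Y-linked genes and *Xist*, which left 12798. Log2 CPM (prior count 1) were scaled by TMM (edgeR 4.0.16) and fitted in limma 3.58.1 (R 4.3.3) to all 18 samples in 6 groups, with sample weights, the mouse as a random block (estimated correlation 0.224) and robust, trended variances. Fractions with the same number come from the same mouse by the labels, and after removal of the group means they correlated at 0.129 to 0.256 in *Sharpin* cpdm mice and 0.0702 to 0.256 in all 9 mice. Genes in the text were the 12 of smallest p per direction with a 2-fold change in every mouse, called members of the gene lists, the 5 and 3 of smallest p per direction in the differences from WT and *Hoil*ΔCd4, the targeted and sorted genes, and the 5 of highest level per length. Members and lists were chosen with earlier results of these data known. Other named list members serve to say what was not called. RefSeq (GRCm38.p6) entries matched 25275 of the 27179 genes, and the other 1904 held 0.655% of counts. The authors' tables hold counts only, and depth limits precision most for genes of a few CPM. The fitting was tested on simulated counts, and edgeR, DESeq2 1.42.0 and other filters, scalings, weights, blocks and left-out mice were tried. Some members of the lists are not reported here.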

Additional observations from a re-analysis of the deposited data

Results flagged for a closer look

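The change between fractions differed by a test of the difference itself in 400 genes between *Sharpin* cpdm and WT mice and in 103 between *Sharpin* cpdm and *Hoil*ΔCd4 mice. The genes below are those with the smallest p-values in each direction, with the change in *Sharpin* cpdm minus that in the other genotype on the log2 scale.

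Against WT, the change was higher for *Tspan32* (1.44), *Nusap1* (1.41), *Ccnb2* (1.23), *Gramd3* (0.875) and *Kansl1l* (0.656). It was lower for *Sh3bgrl2* (−1.72), *Enc1* (−0.665), *Dusp4* (−0.615), *Tbc1d4* (−0.571) and *Ski* (−0.42). Their direction was the same in every alternative that gave a value, and DESeq2 gave no adjusted p for *Sh3bgrl2*.

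Against *Hoil*ΔCd4, the change was higher for *Tspan32* (1.57), *Slc28a2b* (1.29) and *Ift80* (0.579) and lower for *Itgb3* (−0.62), *Bcl2* (−0.495) and *Cd163l1* (−3.41). The fitted value of *Cd163l1* depends on the prior count, since its *Sharpin* cpdm samples held 2 counts at most. It was −1.37 by edgeR (adjusted p = 0.87) and −2.29 by DESeq2, which gave no adjusted p.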

How the results depend on the processing

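Of 121 values of named genes, 108 kept their direction and side of the threshold in every alternative that gave them a value, 20 or 21 each. The *Sharpin* transcript, not called, had a log2 fold change of −0.011 without *Sharpin* cpdm mouse 2 (adjusted p = 0.93), and −0.011 to 0.12 when any mouse was left out. The counts called higher and lower in *Sharpin* cpdm mice stayed within 1.5 times. With at least 10 counts in every sample, which leaves fewer genes, the 2-fold counts were 581 and 248, and the medians were −0.39 for CD4 and CD8 lineage (5 higher), 0.17 for cytokine receptors, 0.24 for egress, −0.016 for innate-like genes (3 higher), 1.02 for mature SP markers and 2.57 for mitosis. The mitosis median was 2.74 by DESeq2, 2.74 with a fixed block and 2.74 in the groups compared alone. With a prior count of 3 it was 2.62, and that of mature SP markers 1.13.

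Genes differing from WT numbered 266 by DESeq2, 634 with a fixed replicate block, 124 without a block, 739 in the groups compared alone, 146 with no filter and 253 without weights, and 104 to 496 when a mouse was left out. Genes differing from *Hoil*ΔCd4 numbered 347 by edgeR, 210 by DESeq2, 393 with a fixed block, 13 without a block, 505 in the groups compared alone, 25 with no filter, 177 with at least 10 counts and 18 to 165 when a mouse was left out. Mitosis genes above WT numbered 17 by DESeq2, 17 without a block, 18 with no filter and 12 to 29 by leaving out a mouse, and DP genes 3 without a block, 4 with no filter, 4 without weights and 2 to 8. The causes were not tested.

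Leaving out a mouse gave median ranges of −0.22 to −0.17 for CD4 and CD8 lineage, 0.16 to 0.23 for NF-κB, −0.34 to −0.26 for transcription factors, −0.99 to −0.87 for TCR reporters, 0.19 to 0.25 for cytokine receptors, 2.58 to 2.73 for mitosis and −0.10 to 0.016 for sterol synthesis. The block changed no other call by over 1.5 times. Genes near 0 in 1 fraction have fold changes limited by depth.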

Other observations

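Few TCR α segments were called. Of 50 *Traj* segments that passed the filter, 7 were called higher in MHC I high cells of *Sharpin* cpdm mice and none lower, with a median log2 fold change of 0.23 against −0.30 in WT, and 3 were called different from WT. That share lies below the 27.2% of all genes called higher. Of 93 *Trav* segments 14 were called higher and 8 lower (median 0.02), while of 22 *Trbv* segments 1 was called higher and 12 lower (median −0.26), and of 13 *Trbj* segments 4 were called lower and none higher (median −0.17), against 27.4% of all genes called lower. All 3 *Trgv* (median 2.01) and both *Trgj* segments (median 2.35) of the γ locus were called higher. Segments of a family share sequence, so their counts are uncertain.

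*Pim1*, a survival kinase gene induced by cytokines, had a log2 change of −0.05 in *Sharpin* cpdm and −0.51 in WT mice (limma adjusted p of the difference = 0.014). *Hk1*, the first enzyme of glycolysis, had −0.09 against 0.19 (adjusted p of the difference = 0.015), and *Tab3*, an adaptor that reads ubiquitin chains, rose by 0.19 against −0.16 (adjusted p of the difference = 0.030).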
